A study of Homo sapiens with 30 samples.

Results

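The 44 genes described here act in G2 phase and mitosis. They were taken by symbol from a list chosen with earlier results of these data known. All 44 were in the table of 20114 genes, and all 44 were among the 12743 genes with at least 1 CPM (counts-per-million, TMM-scaled) in at least 2 libraries, so the filter on low values removed no member. By role, 8 act in mitotic entry, 10 in spindle assembly, 6 at the kinetochore, 8 in the spindle checkpoint and anaphase, 10 at the midzone and in cytokinesis, and 2 (MKI67 and PBK) are used as proliferation markers. Poly-A RNA was sequenced from SUM190, an established inflammatory breast cancer cell line, and from a doxorubicin-resistant (DR) and a paclitaxel-resistant (PR) derivative, with 30 libraries in 15 groups of 2. Treatment began 24 h after seeding and lasted 72 h. The 7 groups of parental (Par) cells were DMSO, the solvent control, 2.5 nM and 10 nM paclitaxel, 65 nM and 1 µM doxorubicin, 15 µM ruxolitinib, and a combination of ruxolitinib and 2.5 nM paclitaxel. The 3 groups of DR cells were DMSO and doxorubicin at 350 nM and 1 µM. The 5 groups of PR cells were DMSO, 6.5 nM and 10 nM paclitaxel, 15 µM ruxolitinib, and a combination of ruxolitinib and 6.5 nM paclitaxel. For ruxolitinib the labels state 15 µM where it was used alone but 15 nM in both combinations. Neither the source of the replicates (separate cultures or not) nor the clonality of the resistant lines is stated, and the p-values therefore reflect a spread between libraries that may be technical only.

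Cyclin B bound to CDK1 drives entry into mitosis, and the CDC25 phosphatases and the kinase PLK1 help to switch it on. Paclitaxel binds microtubules and keeps the spindle checkpoint active, doxorubicin damages DNA through topoisomerase II, and ruxolitinib inhibits the kinases JAK1 and JAK2. Most genes of the mitotic program are transcribed late in the cell cycle through MuvB complexes with B-MYB and FOXM1, which act at promoters holding a CHR element and, often, CCAAT boxes bound by NF-Y. In bulk RNA, fewer cells in G2 or mitosis and less RNA of a gene per cell cannot be told apart.

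Promoter sequences are shown because many genes of the mitotic program share these elements, and the members were taken by symbol, not by promoter. RefSeq promoters (GRCh38.p14, not the authors' build) matched 37 of the 44 symbols. The letters searched, on both strands, were TTTGAA and TTCGAA for the CHR and CCAAT for the CCAAT box. In the 250 bases upstream of the start, 19 of 37 members (51.4%) held CHR letters, against 14.6% of 27305 promoters in the table and 9.78% of the 9641 promoters of tested genes. CCAAT letters were in 28 of 37 members (75.7%), against 33.0% and 35.3%, and both kinds were in 17 (45.9%), against 5.24% and 3.93%. These shares describe letters, not binding sites. The sequences below are 100 bases upstream of the start, written 5′ to 3′ on the gene's strand, with CHR and CCAAT letters of either strand in capitals.
PLK1, chr16:23678789-23678888, plus strand: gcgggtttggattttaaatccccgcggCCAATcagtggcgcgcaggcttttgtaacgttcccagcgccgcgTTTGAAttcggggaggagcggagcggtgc
CDK1, chr10:60778160-60778259, plus strand: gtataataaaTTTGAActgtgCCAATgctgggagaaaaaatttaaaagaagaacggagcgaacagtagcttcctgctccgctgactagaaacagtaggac
MKI67, chr10:128126424-128126523, minus strand: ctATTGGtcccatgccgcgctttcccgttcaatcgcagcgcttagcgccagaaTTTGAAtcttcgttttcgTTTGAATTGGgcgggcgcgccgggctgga
CCNB1, chr5:69167050-69167149, plus strand: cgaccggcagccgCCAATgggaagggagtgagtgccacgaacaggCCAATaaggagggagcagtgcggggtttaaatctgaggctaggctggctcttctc
BUB1, chr2:110678064-110678163, minus strand: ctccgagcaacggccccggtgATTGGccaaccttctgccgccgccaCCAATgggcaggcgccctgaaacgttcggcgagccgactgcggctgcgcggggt
KIF20A, chr5:138179012-138179111, plus strand: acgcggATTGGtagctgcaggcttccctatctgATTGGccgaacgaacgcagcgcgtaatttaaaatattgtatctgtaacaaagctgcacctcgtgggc
CENPF, chr1:214603095-214603194, plus strand: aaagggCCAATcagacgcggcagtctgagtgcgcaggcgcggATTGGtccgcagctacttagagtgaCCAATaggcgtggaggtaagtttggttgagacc
The first 3 hold CHR letters, which begin 29 bases before the start in PLK1, 161 before it in CDK1, and 47 and 29 before it in MKI67, where the nearer match overlaps an inverted CCAAT. The window of CDK1 ends 72 bases before the start, and the other windows end at the base before it. CCNB1, BUB1, KIF20A and CENPF hold CCAAT letters without these CHR letters in the 250 bases. The CDC25B window held neither.

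Libraries held 18443749 to 32669995 reads in genes. The limit set by a count of 0 (3 reads) was 0.0947 to 0.163 CPM, counting error only. Replicates of Par DMSO differed most (chi-square per degree of freedom 36.3, against 2.19 in Par ruxolitinib), and their difference followed transcript GC content (Spearman rho 0.790 across genes, which are not independent replicates). Replicates of Par cells in 1 µM doxorubicin differed in the members themselves, with a median log2 difference (replicate 2 minus 1) of 0.278, against -0.116 to 0.0689 in the other groups. Markers of the luminal, ERBB2-amplified line summed to 4453 to 8597 CPM. Of 10 stromal, endothelial and immune markers in the table, 5 passed the filter, and the 10 summed to 16.4 to 47.0 CPM. CD68, at 6.77 to 36.5 CPM, was the largest, followed by COL1A1 at 4.31 to 11.99 CPM. CDH5 reached 6.06 CPM, PTPRC 5.96 and CD14 5.20. CD68, COL1A1, CDH5, CD14 and PDGFRB were above 0 in every library. CD3E was at 0 in 24 libraries, COL1A2 in 22, DCN in 15, LUM in 9 and PTPRC in 3.

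Across the 15 groups the members were lowest in Par cells in 10 nM paclitaxel. Their CPM summed to 3570 and 3602 in the 2 libraries of that group, 4662 and 4468 in 2.5 nM paclitaxel, 4576 and 5481 in 1 µM doxorubicin, and 5800 and 5479 in DMSO. At the other end were DR cells in 1 µM doxorubicin (7055 and 7264), PR cells in ruxolitinib (7207 and 7060) and DR cells in 350 nM doxorubicin (6906 and 7333), whose ranges overlapped. Of the 44 members, 38 had their lowest group mean in Par 10 nM paclitaxel, 5 in Par 1 µM doxorubicin and 1 in Par 2.5 nM paclitaxel. The highest group mean fell in DR 1 µM doxorubicin for 17 members and in PR ruxolitinib for 13. Over the 15 group means, which share libraries across genes, Pearson r between 2 members had a median of 0.696 (946 pairs, -0.127 to 0.980, 8 below 0). Least like the median of the other members over the 15 groups were BIRC5 (r = 0.447), AURKB (0.466) and KIF2C (0.550), and most like it was KIF11 (0.939).

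**Figure D1:**
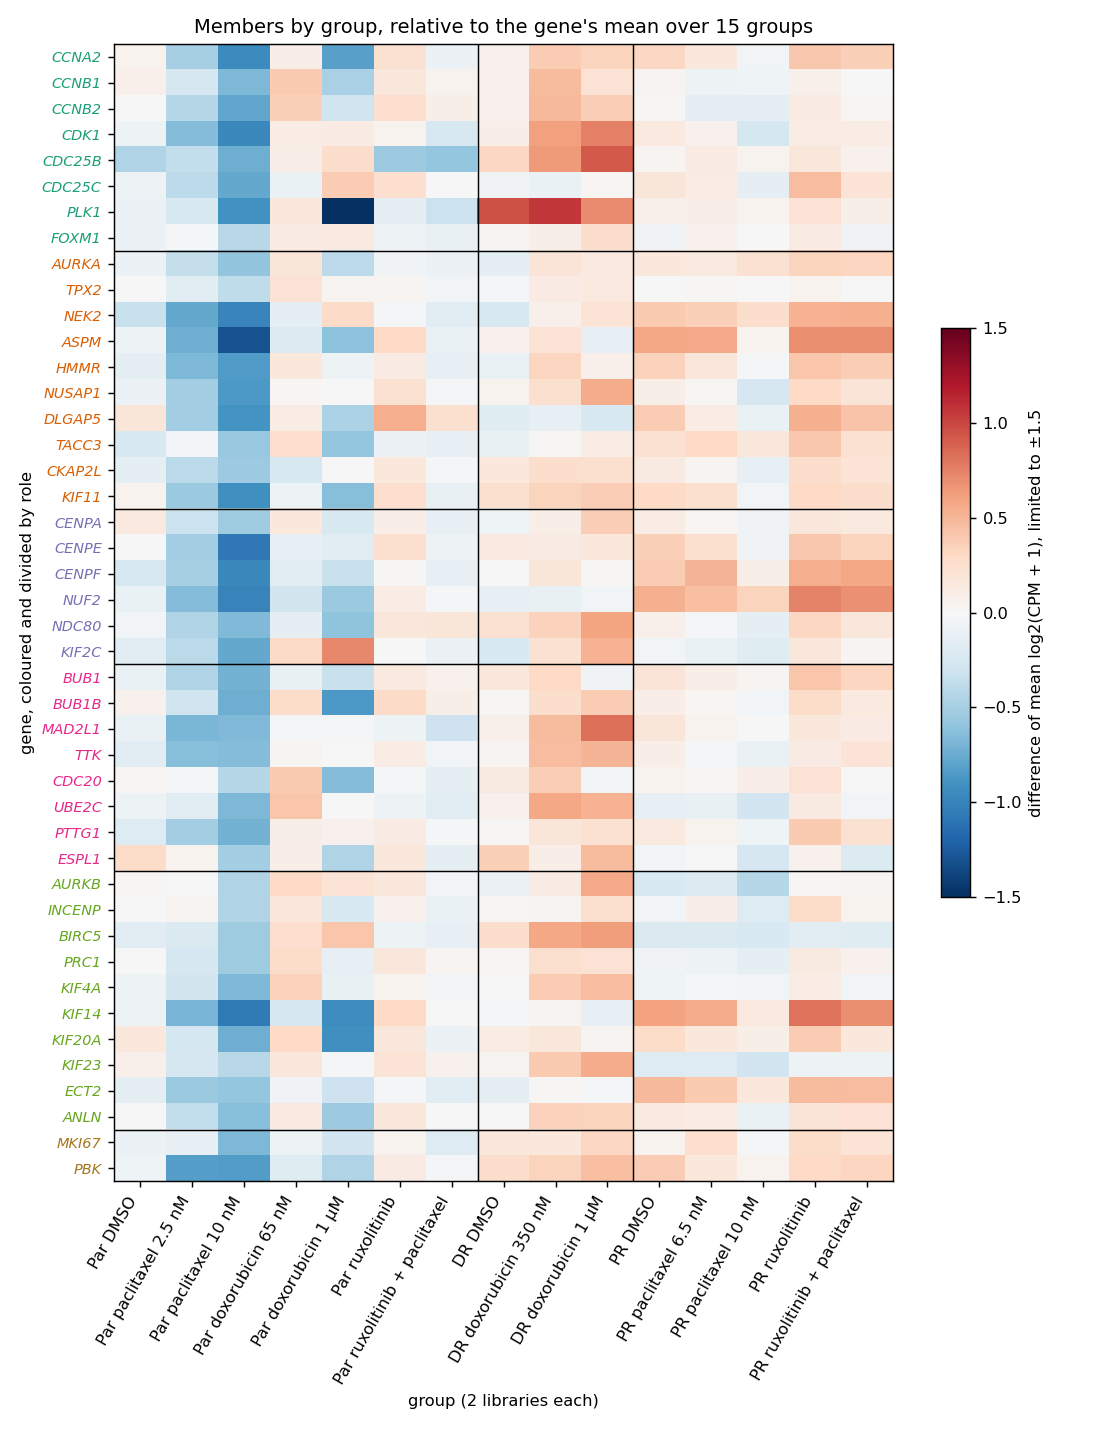
Heat map of the 44 members (rows, by role) in 15 groups (columns), as the group's mean log2(CPM + 1) minus the gene's mean over the groups, with blue for lower and red for higher. The column of Par cells in 10 nM paclitaxel is blue throughout, and PLK1 is darkest blue in Par cells in 1 µM doxorubicin and reddest in DR cells.

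In parental cells more members fell at the higher paclitaxel dose. At 10 nM all 44 members fell (limma adjusted p under 0.05 for each), while 28.1% of all tested genes fell, with a median log2 change of -0.63 in the members and -0.04 over all genes. The changes, which are differences of log2(CPM + 1) given ± SE, ran from -1.23 ± 0.16 for ASPM, a spindle pole protein, to -0.28 ± 0.11 for CDC25B. At 2.5 nM, 29 members fell, against 17.1% of all genes, and the members' median was -0.34. From 2.5 to 10 nM, 30 members fell further, against 15.4% of all genes.

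Among genes of mitotic entry, CDK1 read 229 and 187 CPM in DMSO, 150 and 127 in 2.5 nM paclitaxel, and 105 and 118 in 10 nM. Its log2 changes were -0.58 ± 0.11 (adjusted p = 0.000817) and -0.89 ± 0.11 (adjusted p = 4.25e-07). CCNB1, the cyclin that activates CDK1, read 299.8 and 284 CPM in DMSO, 254 and 212 in 2.5 nM, and 168 and 177 in 10 nM. Each step down was free of overlap for both genes. PLK1 read 83.6 and 103 CPM in DMSO, 89.0 and 80.2 in 2.5 nM, and 57.4 and 48.1 in 10 nM. It therefore overlapped DMSO at the low dose (-0.14 ± 0.10, adjusted p = 0.314) and lay below it at the high dose (-0.81 ± 0.10, adjusted p = 7.79e-07). FOXM1, the transcription factor of the program, read 131 and 173 CPM in DMSO, 154 and 160 in 2.5 nM, and 130 and 109 in 10 nM, where it fell by 0.34 on the log2 scale. CDC25B was the only member whose libraries at 10 nM (73.5 and 62.9 CPM) overlapped those in DMSO (71.8 and 95.3 CPM).

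In spindle assembly, the largest falls at 10 nM paclitaxel after ASPM were DLGAP5 (-1.08), which stabilises kinetochore fibres, and KIF11 (-0.98), the motor that separates spindle poles. AURKA, a kinase of spindle poles, read 70.2 and 70.8 CPM in DMSO, 60.7 and 56.2 in 2.5 nM, and 49.97 and 48.6 in 10 nM. At the kinetochore, the motor CENPE fell by 1.08, and CENPF read 271 and 252 CPM in DMSO, 207 and 231 in 2.5 nM, and 158 in both libraries at 10 nM. CENPF was not called at 2.5 nM (-0.26 ± 0.11, adjusted p = 0.0778). The checkpoint kinase BUB1 read 95.8 and 83.2 CPM in DMSO, 72.4 and 67.6 in 2.5 nM, and 57.3 and 59.0 in 10 nM, with no overlap between doses. KIF20A, a midzone motor needed for cytokinesis, read 136 and 144 CPM in DMSO, 109 and 98.7 in 2.5 nM, and 75.6 and 74.8 in 10 nM (-0.89 ± 0.08, adjusted p = 8.59e-09). KIF14, another cytokinesis motor, fell by 0.99, and cyclin A gene CCNA2 by 1.01. MKI67 overlapped DMSO at 2.5 nM (451 and 523 CPM in DMSO, 428 and 531 in 2.5 nM) and lay below it at 10 nM (358 and 292). Largest at 2.5 nM were the falls of PBK (-0.75), DLGAP5 (-0.71), ASPM (-0.66), KIF14 (-0.62), KIF11 (-0.61) and the checkpoint gene MAD2L1 (-0.59). Between the doses, PLK1 (-0.67), CENPE (-0.57), ASPM (-0.57), MKI67 (-0.56), the separase gene ESPL1 (-0.56) and TACC3 (-0.53), a spindle protein, fell most. The count of 29 at 2.5 nM was 14 when only parental libraries were fitted, 5 without DMSO replicate 1 and 6 without 2.5 nM replicate 2. The count of 30 between the doses was 19 in the parental fit, without 2.5 nM replicate 1 and without 10 nM replicate 2.

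**Figure D2:**
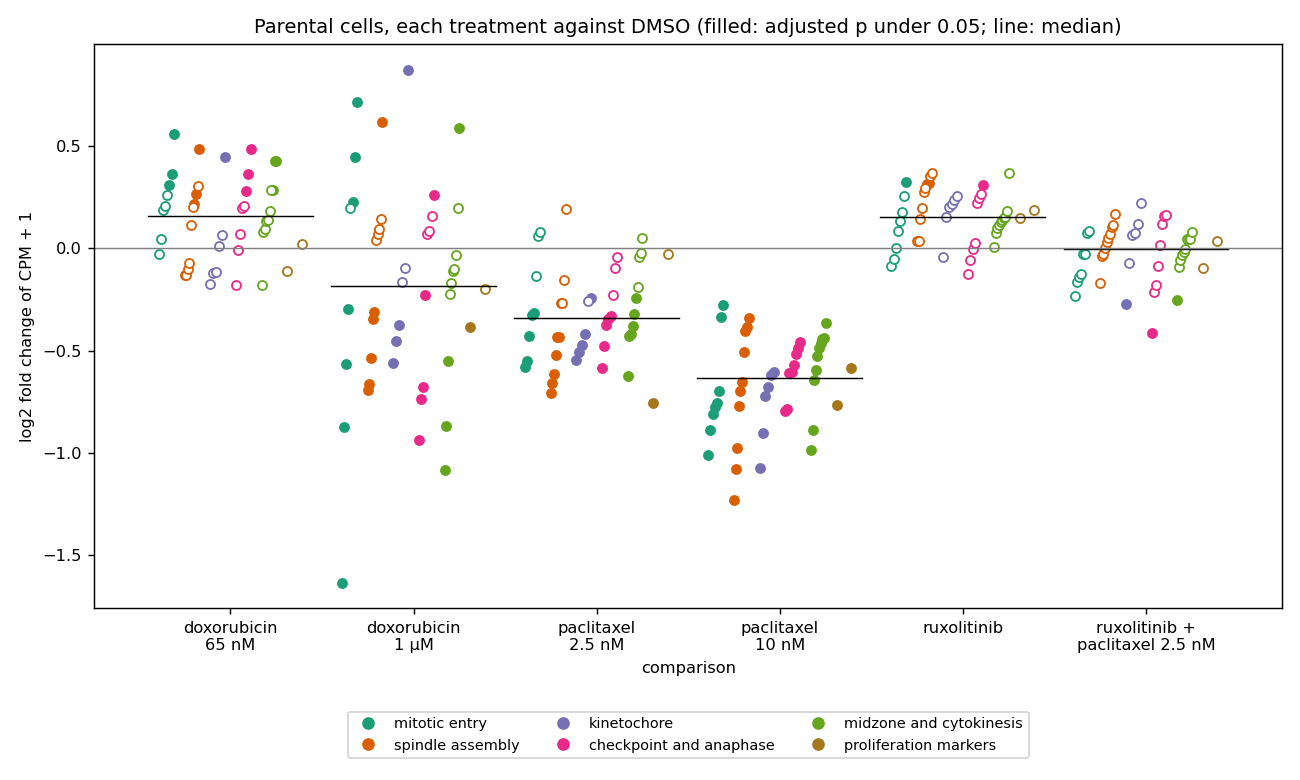
Log2 fold change of CPM + 1 (vertical axis) of each member, coloured by role, for 6 treatments of parental cells against the same DMSO libraries, with filled points for adjusted p under 0.05 and lines at the median of 44. Every point at 10 nM paclitaxel is filled and below 0, while 1 µM doxorubicin spreads from PLK1 at -1.63 to KIF2C at 0.87.

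With 1 µM doxorubicin, PLK1 and KIF20A had the largest falls among the members in parental cells and KIF2C the largest rise. In all, 20 members fell and 7 rose, with 41.5% and 34.3% of all tested genes falling and rising, so the members' shares lay near or below the background. The members' median was -0.18, against -0.07 over all genes. Since most genes were called here and CPM are scaled within each library, these changes are relative to the other RNA. PLK1 fell from 83.6 and 103 CPM in DMSO to 30.1 and 28.5, a log2 change of -1.63 ± 0.10 (adjusted p = 6.68e-13). KIF20A fell from 136 and 144 CPM to 59.9 and 71.8 (-1.08 ± 0.08, adjusted p = 2.10e-11). Both genes lay below DMSO in each library. The checkpoint kinase BUB1B fell by 0.94, CCNA2 and KIF14 each by 0.87, and ESPL1 by 0.73.

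CCNB1 fell to 182 and 213 CPM (-0.56 ± 0.09) and AURKA to 52.5 and 61.3 (-0.31 ± 0.08). CDK1, the partner of cyclin B in mitotic entry, read 210 and 269 CPM against 229 and 187 in DMSO and was not called (0.20 ± 0.11, adjusted p = 0.0939). BUB1 was called lower (-0.23 ± 0.09, adjusted p = 0.0225), although its libraries (68.9 and 83.7 CPM) overlapped DMSO. CENPF (207 and 288 CPM) and MKI67 (381 and 468 CPM) overlapped DMSO and were not called. The members that rose were KIF2C (0.87 ± 0.07), a microtubule depolymerase of the kinetochore, CDC25B (0.72 ± 0.11), the centrosome kinase NEK2 (0.62), the survivin gene BIRC5 (0.59), CDC25C (0.45), the securin gene PTTG1 (0.26) and FOXM1 (0.23 ± 0.10, adjusted p = 0.0491). CDC25B read 150 and 124 CPM, above both DMSO libraries, whereas FOXM1 (186 and 167 CPM) overlapped DMSO. KIF4A and PTTG1 have near-identical copies elsewhere, KIF4B and PTTG2, so their counts may be split. In this group replicate 2 had the higher summed CPM (5481 against 4576), and no single left-out library moved the counts of 20 and 7 by more than 1.5 times.

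At 65 nM the direction differed. There 13 members rose, against 5.21% of all genes, with a median of 0.16. They were led by CDC25B (0.56), TACC3 (0.49), UBE2C (0.48), a ubiquitin-conjugating enzyme of anaphase, KIF2C (0.45), BIRC5 (0.43) and KIF4A (0.42). CCNB1 read 370 and 354 CPM and AURKA 82.2 and 87.5, above both DMSO libraries (log2 changes 0.31 and 0.26). PLK1 read 107 and 117 CPM and was not called (0.26 ± 0.10, adjusted p = 0.0947). The count of 13 was 5 in the parental fit, 23 after each library was corrected for transcript GC content and length, 4 without DMSO replicate 1 and 3 without 65 nM replicate 2. From 65 nM to 1 µM, 23 members fell, against 40.1% of all genes, led by PLK1 (-1.90), KIF20A (-1.22), BUB1B (-1.14), the anaphase activator CDC20 (-1.04), CCNA2 (-0.92) and CCNB1 (-0.87). In that comparison CDC25C (0.47), KIF2C (0.43), NEK2 (0.42) and the spindle gene CKAP2L (0.24) rose, 4 members against 33.8% of all genes, and 7 members rose after the GC and length correction.

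The high doses of the 2 drugs were also set directly against each other. With 1 µM doxorubicin 31 members were higher than with 10 nM paclitaxel (32.5% of all genes), and 2 were lower (36.7%). The higher ones were led by KIF2C (1.48), NEK2 (1.27), CDC25C (1.15), CDK1 (1.08), CDC25B (0.99) and BIRC5 (0.95). The 2 lower ones were PLK1 (-0.82) and KIF20A (-0.19). The count of 2 was 1 in the parental fit, with median-of-ratios scaling, without 10 nM paclitaxel replicate 1 and without 1 µM doxorubicin replicate 1, and 5 after the GC and length correction. These drugs and doses are not matched in molarity.

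**Figure D3:**
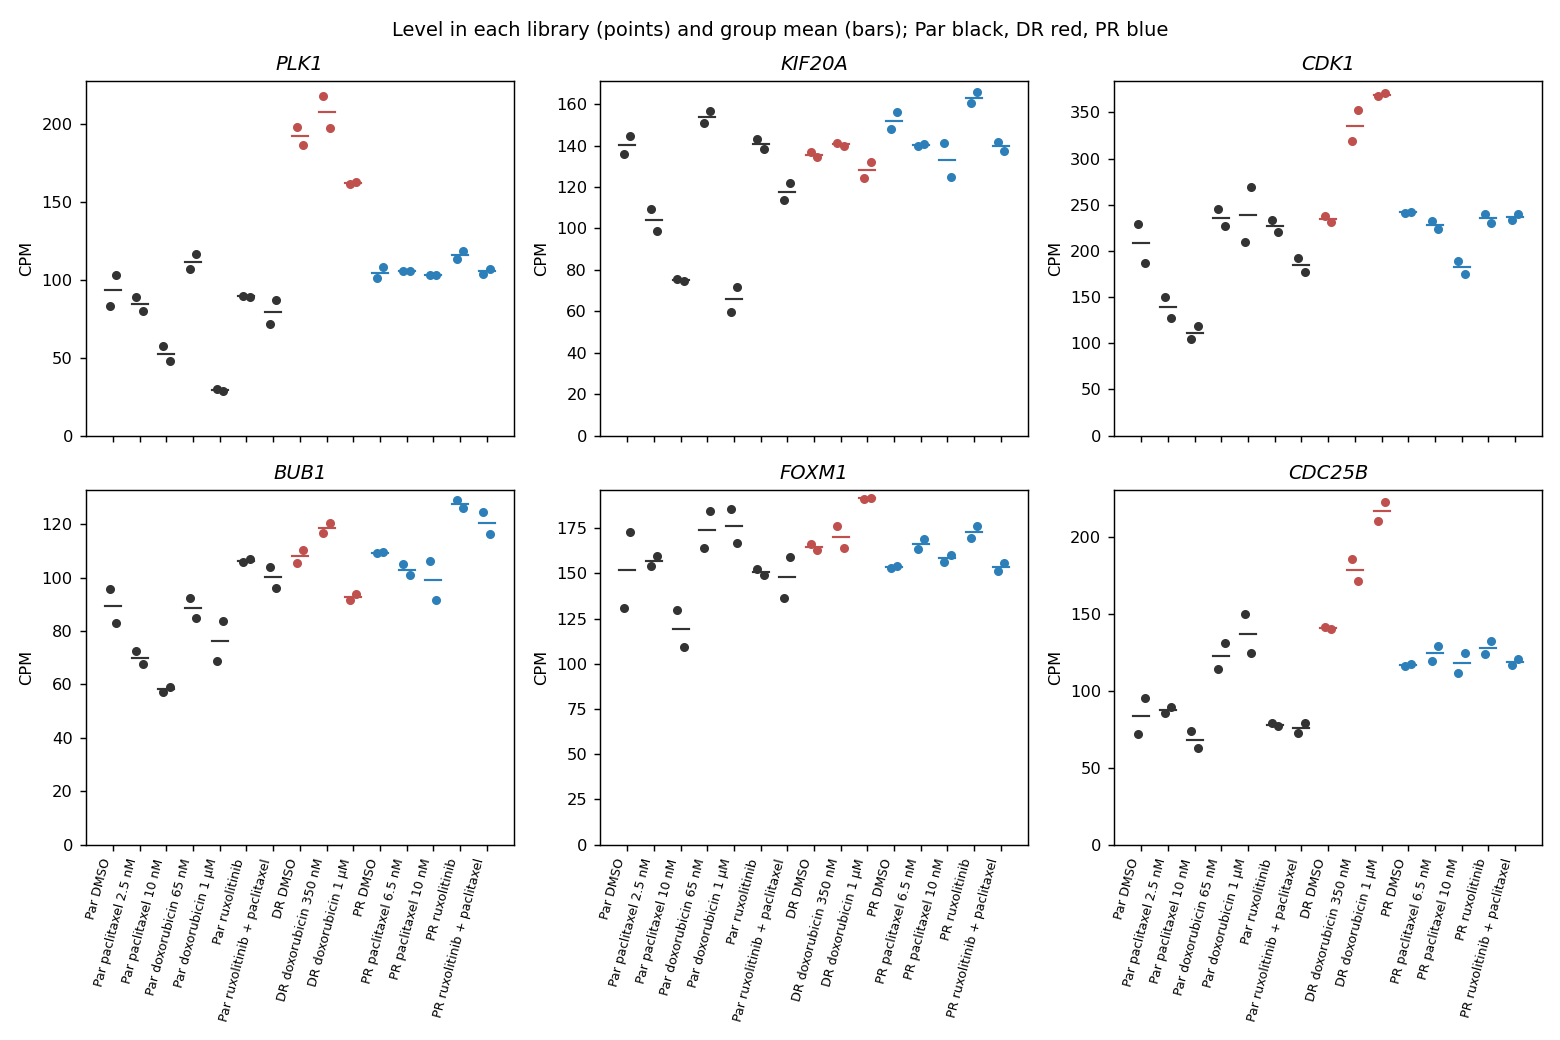
CPM of PLK1, KIF20A, CDK1, BUB1, FOXM1 and CDC25B (vertical axes from 0) in each library of the 15 groups, with bars at group means of n = 2. PLK1 stands at 30.1 and 28.5 CPM in Par cells in 1 µM doxorubicin and at 162 and 163 in DR cells at the same dose.

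Other cell cycle lists are read here against all 12743 tested genes. At 10 nM paclitaxel, where 28.1% of all genes fell and 2560 genes rose, 31 of 36 DNA replication genes fell (median -0.57), led by POLA1 (-0.97), a subunit of DNA polymerase alpha, RRM2 (-0.95), a subunit of ribonucleotide reductase, and GINS1 (-0.85). Of 49 other kinetochore and spindle genes 39 fell and 1 rose (median -0.50), among them TOP2A (-1.15) and CENPI (-1.05), and 12 of 20 cohesin and condensin genes fell, with NCAPG2 (-0.85) first. Of 17 genes of the anaphase-promoting complex 7 fell, and of 13 MuvB and DREAM genes 7 fell and 1 rose. MYBL2, the gene of B-MYB, read 157 and 195 CPM in DMSO and 126 and 109 in 10 nM paclitaxel (-0.58). In the list of 18 G2/M regulators, 6 rose and 7 fell. GADD45A, a stress-induced inhibitor of CDK1, read 16.3 and 16.9 CPM in DMSO, 67.8 and 75.5 in 10 nM paclitaxel, and 169 and 167 in 1 µM doxorubicin. The CDK inhibitor gene CDKN1A read 45.7 and 57.6 CPM in DMSO, 71.6 and 62.4 in 10 nM paclitaxel, and 95.2 and 80.4 in 1 µM doxorubicin. Both rose in each of these comparisons. With 1 µM doxorubicin 11 replication genes rose and 14 fell, and 16 and 17 of the other kinetochore and spindle genes did, shares near or below the 34.3% and 41.5% of all genes. TOP2A fell by 0.56 there, and MYBL2 was not called (0.16). The stromal, endothelial and immune markers summed to 26.9 and 30.4 CPM in DMSO, 47.0 and 41.9 in 10 nM paclitaxel and 36.9 and 32.0 in 1 µM doxorubicin, and their part in these results was not tested.

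In DMSO, DR cells differed from Par cells in 6 members. In DR cells 5 members were higher, against 12.3% of all genes, and 1 was lower, against 15.2%, so the members' shares lay near or below the background. PLK1 read 199 and 187 CPM in DR DMSO against 83.6 and 103 in Par DMSO, a log2 difference of 1.04 ± 0.10 (adjusted p = 2.44e-08). CDC25B read 142 and 140 CPM against 71.8 and 95.3 (0.76 ± 0.11). Both stood above the parental libraries, as did BUB1 at 105 and 110 CPM (0.27). BIRC5 (0.44) and CKAP2L (0.30) were the other higher members, and DLGAP5 was lower (-0.36). CDKN1A (-0.82) and GADD45A (-0.57) were lower too. In the gene order of GRCh38.p14, used here for neighbours only, PLK1 on chromosome 16 lies beside other raised genes. Of the 10 tested genes on each side of it, 11 were higher and 3 lower in DR cells, including all 10 on one side, from USP31 (0.86) to DCTN5 (0.93), and the next gene on the other side, RBBP6 (0.61). These neighbours were picked after the PLK1 value was seen. The count of 5 higher members was 16 after the GC and length correction, 3 in the fit of the 2 lines, 9 without Par DMSO replicate 1, and 3 without either DR DMSO library. The call of DLGAP5 was lost without the filter, in the fit of the 2 lines, without Par DMSO replicate 1 and without either DR DMSO library.

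In PR cells 15 members were higher than in parental cells and 1 was lower, each against 16.3% of all genes. NEK2 (0.73 ± 0.10), KIF14 (0.67), ASPM (0.65), the kinetochore gene NUF2 (0.63), ECT2 (0.62), which activates RhoA at the cleavage furrow, and CENPF (0.61) led. CENPF read 402 and 400 CPM in PR DMSO against 271 and 252 in Par DMSO. CDC25B (116 and 117 CPM), BUB1 (109 in both) and AURKA (82.6 and 84.5) were also above both parental libraries, by 0.49, 0.29 and 0.24 on the log2 scale. PLK1 read 101 and 108 CPM and overlapped parental cells. ESPL1 was lower (-0.32). CDKN1A read 20.4 and 21.0 CPM in PR DMSO, below the parental libraries (-1.27), and GADD45A 9.99 and 9.59 (-0.71). TOP2A (0.19) and MYBL2 (-0.16) were not called. The count of 15 was 9 without Par DMSO replicate 2. The call of ESPL1 was lost without either PR DMSO library, and 2 members were lower without Par DMSO replicate 1 and after the GC and length correction.

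In DR cells each doxorubicin dose was compared with DMSO, and members were called higher at both. At 350 nM 8 members rose, against 2.39% of all genes, led by UBE2C (0.51), CDK1 (0.51), KIF2C (0.45), CCNB2 (0.43), CCNB1 (0.41) and KIF4A (0.37). At 1 µM 21 rose, against 19.1% of all genes, with a median of 0.21. KIF2C and MAD2L1 (0.75 each), the midzone kinase gene AURKB (0.66), CDK1 (0.65), CDC25B (0.61) and KIF23 (0.52), a midzone motor, led. CDK1 read 238 and 231 CPM in DR DMSO, 319 and 353 in 350 nM, and 368 and 371 in 1 µM, with no overlap between groups. CCNB1 read 291 and 285 CPM, then 378 and 387, then 319 and 320, so it was highest at the lower dose. CDC25B read 142 and 140, then 185 and 171, then 211 and 223 CPM. AURKA read 64.7 and 71.0 CPM, then 87.5 and 84.0, then 81.6 and 84.5, and lay above DMSO at both doses. PLK1 read 199 and 187, then 218 and 197, then 162 and 163 CPM, and its difference at 1 µM was not called (-0.24 ± 0.10, adjusted p = 0.0568).

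FOXM1 read 166 and 163 CPM in DR DMSO and 191 and 192 in 1 µM doxorubicin (0.22, adjusted p = 0.0940), and BUB1 105 and 110 CPM against 91.5 and 93.7 (-0.22, adjusted p = 0.0553). KIF20A (137 and 135 CPM in DMSO, 124 and 132 in 1 µM), CENPF (296 and 327, 300 and 325) and MKI67 (545 and 622, 621 and 664) were not called either. From 350 nM to 1 µM 6 members rose, against 9.97% of all genes, and 4 fell, against 11.6%. Both of the members' shares lay near the background. AURKB (0.44), MAD2L1 (0.36), ESPL1 (0.36), NUSAP1 (0.32), KIF2C (0.30) and the centromeric histone gene CENPA (0.27) rose, and CDC20 (-0.42), BUB1 (-0.35), PLK1 (-0.35) and CCNB1 (-0.26) fell. At 1 µM GADD45A rose from 11.2 and 10.5 CPM to 26.2 and 27.1, and CDKN1A from 28.7 in both libraries to 44.3 and 48.7. The count of 8 at 350 nM was 13 in the DR fit, 20 after the GC and length correction, and 2 without either DR DMSO library or without 350 nM replicate 2. The counts of 6 and 4 between doses were 10 and 7 after that correction, 3 and 2 without 350 nM replicate 1, 3 and 0 without 1 µM replicate 1, and 2 and 2 without 1 µM replicate 2. Without 350 nM replicate 2, 3 members rose.

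The response to 1 µM doxorubicin was compared between the lines, where PLK1 and BUB1B differed most among the members. By the interaction test, 27 members responded more positively in DR than in Par cells, against 33.2% of all genes, and CDC25C responded less (-0.36), against 25.1%. The members' median difference was 0.46, and that of all genes 0.08. PLK1 had the largest difference, 1.39 ± 0.14 (adjusted p = 2.32e-08), from a change of -1.63 in Par and -0.24 in DR cells. BUB1B differed by 1.30 ± 0.13, with changes of -0.94 in Par and 0.37 in DR cells. CCNA2 differed by 1.14, KIF20A by 1.01, the kinetochore gene NDC80 by 0.92 and ANLN, an actin-binding protein of the furrow, by 0.89. By role, 8 of 10 midzone and cytokinesis genes, 5 of 8 mitotic entry genes, 5 of 8 checkpoint and anaphase genes, 5 of 10 spindle assembly genes and 3 of 6 kinetochore genes were called higher. FOXM1 (-0.01 ± 0.14), BUB1 (0.01 ± 0.13) and CDC25B (-0.10 ± 0.15) were not called. The call of CDC25C was lost without Par DMSO replicate 1, without DR DMSO replicate 2 and without DR 1 µM replicate 2. With median-of-ratios scaling 2 members were lower, and after the GC and length correction 3 were.

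**Figure D4:**
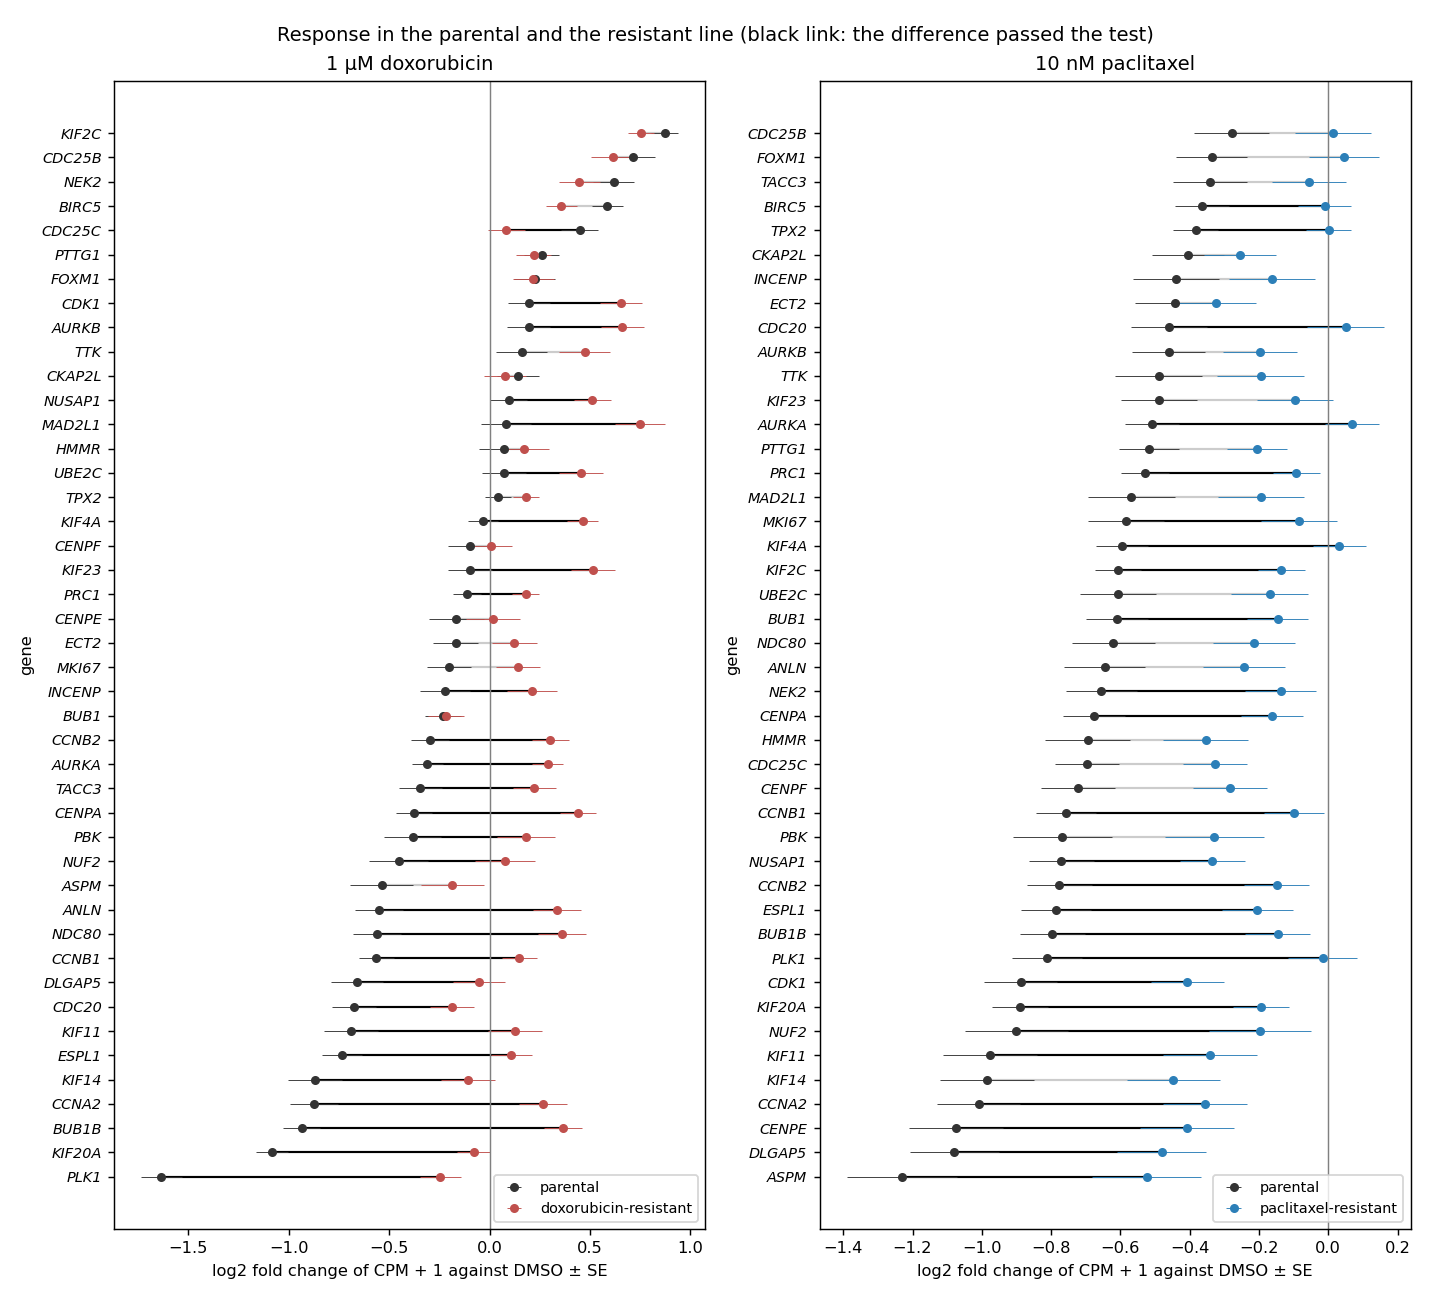
Log2 fold change ± SE of CPM + 1 against the same line's DMSO (horizontal axis) for each member, at 1 µM doxorubicin in Par and DR cells (left) and at 10 nM paclitaxel in Par and PR cells (right), with black links where the interaction test passed. The difference for doxorubicin passed for 28 members (27 higher and 1 lower, against 33.2% and 25.1% of all genes) and that for paclitaxel for 25, all higher (against 6.87%), and PLK1 has the longest link in both panels.

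Paclitaxel was given to PR cells at 6.5 and 10 nM. At 6.5 nM limma called 0 members lower, against 0.0235% of all genes, with 0 at an unadjusted p under 0.05 and 0 by voom on the recovered reads, but 1 when only PR libraries were fitted. At 10 nM, 7 members fell, against 6.99% of all genes, with a median of -0.19. The members that fell included ASPM (-0.52), DLGAP5 (-0.48), KIF14 (-0.45), CENPE (-0.41), CDK1 (-0.41) and NUSAP1 (-0.33), a spindle protein. CDK1 read 242 in both PR DMSO libraries and 189 and 175 CPM in 10 nM. CCNB1 (278 and 288 in DMSO, 288 and 242 in 10 nM), PLK1 (101 and 108, 103 in both) and KIF20A (148 and 156, 141 and 125) were not called, and of these only KIF20A had no overlap. CDKN1A read 20.4 and 21.0 CPM in DMSO and 21.5 and 22.1 in 10 nM. The count of 7 was unsteady, at 21 in the PR fit, 25 after the GC and length correction, 4 without the filter, 0 without either PR DMSO library, 4 without 10 nM replicate 1 and 0 without 10 nM replicate 2.

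At 10 nM paclitaxel the interaction test called 25 members higher in PR than in Par cells, against 6.87% of all genes, and all 44 differences were above 0 (median 0.45, against 0.05 over all genes). PLK1 differed by 0.79 ± 0.14 (adjusted p = 0.000934), from -0.81 in Par and -0.02 in PR cells. ASPM (0.71), NUF2 (0.70), KIF20A (0.70), CENPE (0.67) and CCNB1 (0.66) followed. FOXM1 (0.38), CENPF (0.44) and CDC25B (0.29) were not called. GADD45A, which read 9.99 and 9.59 CPM in PR DMSO and 19.2 and 18.3 in 10 nM paclitaxel, differed by -1.17, and MYBL2 (0.40) and TOP2A (0.68) were called higher, whereas CDKN1A (-0.30) was not called. The count of 25 was 41 after the GC and length correction, 16 without the filter, 16 without Par 10 nM replicate 1, 10 without PR DMSO replicate 1, 12 without PR DMSO replicate 2 and 11 without PR 10 nM replicate 1.

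Ruxolitinib alone was compared with DMSO in Par and PR cells. In Par cells 4 rose, against 5.51% of all genes, namely CDC25C, NEK2 and NUSAP1 (0.32 each) and PTTG1 (0.31). In PR cells limma called 0 higher, against 2.86% of all genes, with 11 at an unadjusted p under 0.05 and 1 by voom. CDKN1A fell in Par cells (-0.48) to 36.99 and 36.2 CPM. The members' medians were 0.15 and 0.14, and their difference between lines called 0 members lower, against 0.110% of all genes, with 0 at an unadjusted p under 0.05 and 0 by voom. The count of 4 in Par cells was 0 in the parental fit and without either ruxolitinib library, 27 after the GC and length correction, 9 without DMSO replicate 1 and 1 without DMSO replicate 2. In PR cells 16 were higher in the PR fit and 20 after that correction.

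Together with 2.5 nM paclitaxel, ruxolitinib went with higher levels of most members in parental cells. Against paclitaxel alone 30 rose, against 15.1% of all genes, with a median of 0.37. PBK (0.79), DLGAP5 (0.75), KIF14 (0.70), NDC80 (0.64), ASPM (0.63) and NUF2 (0.61) led. CDK1 read 150 and 127 CPM in paclitaxel and 192 and 178 with ruxolitinib added, against 229 and 187 in DMSO. BUB1 read 72.4 and 67.6 CPM in paclitaxel and 104 and 96.1 with ruxolitinib, and CENPF 207 and 231, then 295 and 274. For these genes the combination stood above paclitaxel alone. PLK1 (71.5 and 87.3 CPM in the combination), FOXM1 (137 and 159), MKI67 (440 and 469) and CDC25B (72.5 and 78.9), which had not been called at 2.5 nM paclitaxel, were not called here either. CDKN1A read 70.8 and 69.5 CPM in paclitaxel and 45.9 and 55.0 in the combination (-0.47), while GADD45A (30.8 and 27.7 CPM, then 32.5 and 29.99) was not called. TOP2A rose by 0.38. The stromal, endothelial and immune markers summed to 36.6 and 39.9 CPM in paclitaxel and 22.9 and 24.0 in the combination, and their part was not tested. The count of 30 was 16 in the parental fit, and 12 both without 2.5 nM paclitaxel replicate 2 and without combination replicate 1.

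Against DMSO 3 members were lower with the combination, against 8.28% of all genes, so the members' share lay near or below the background. They were ESPL1 (-0.41), CENPA (-0.27) and KIF20A (-0.25), and the median of all members was -0.00. The count of 3 was 0 in the parental fit, without DMSO replicate 2 and without combination replicate 1, and 5 after the GC and length correction. The effect of ruxolitinib with paclitaxel was not shown to differ from its effect without it. The interaction test called 0 members higher, against 0% of all genes, with 4 at an unadjusted p under 0.05 and 0 by voom, and the median difference was 0.19. The labelled ruxolitinib doses of these arms differ. In PR cells the combination against 6.5 nM paclitaxel alone gave 0 members higher by limma, against 1.16% of all genes, with 5 at an unadjusted p under 0.05 and 0 by voom, and a median of 0.12. There 6 were higher in the PR fit and 5 after the GC and length correction.

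**Figure D5:**
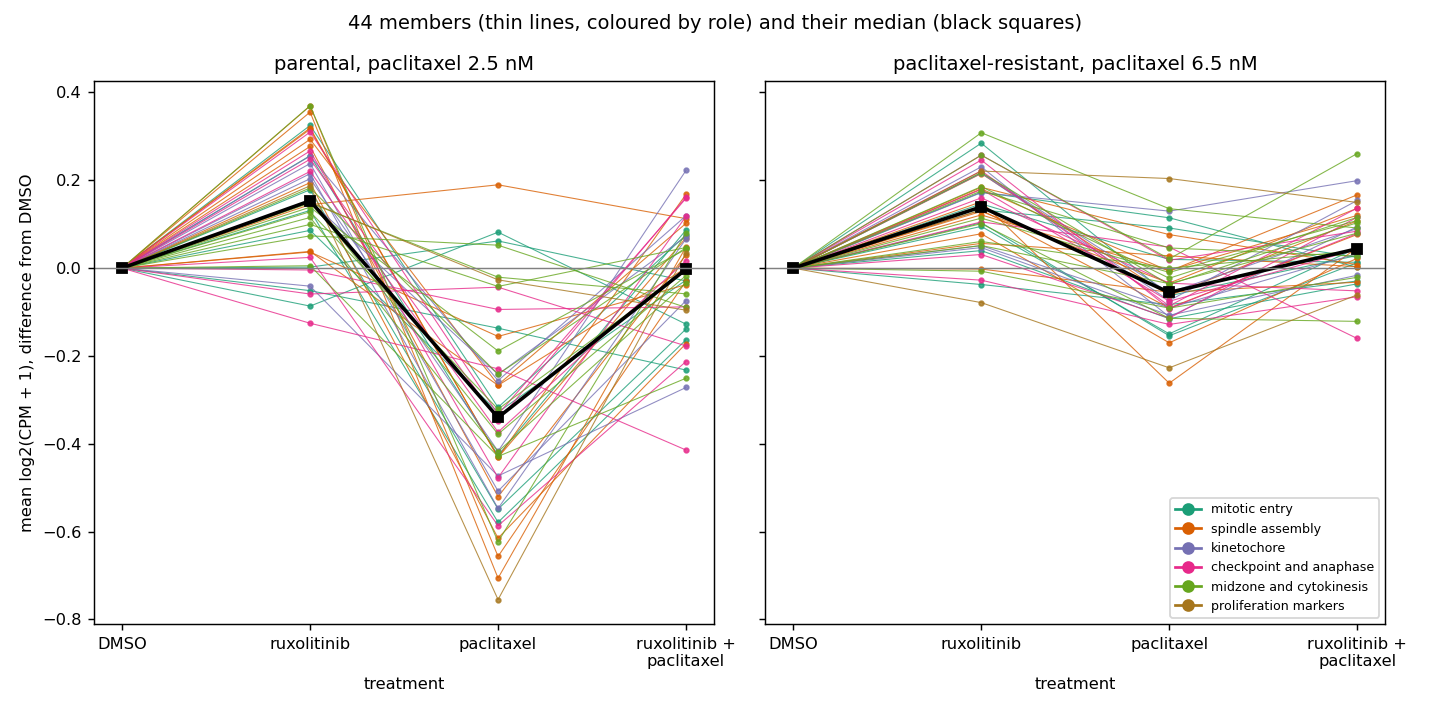
Mean log2(CPM + 1) of each member minus its value in DMSO (vertical axis) under ruxolitinib, paclitaxel and both, in Par cells (left) and PR cells (right), with black squares at the median of 44. In Par cells the median goes from -0.34 with 2.5 nM paclitaxel to -0.00 with ruxolitinib added, and in PR cells the median with ruxolitinib alone is 0.14.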

How the data were processed

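Poly-A RNA of 30 SUM190 libraries (15 groups of 2) was sequenced. Per the submitters' processing notes, STAR 2.5.1b, edgeR and the builds GRCh37 and hg19 were used. No source used here names the read counter or the annotation. The deposited table holds log2(CPM + 1), on which the authors had applied TMM scaling. Within a tolerance of 0.01, 100% of values in every library corresponded to whole reads, and reads were recovered from them.

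The 44 members and all other lists were chosen with earlier results of these data known. The 12743 genes reaching 1 CPM in 2 or more libraries entered 1 limma model (limma 3.58.1, R 4.3.3) with a mean for each of the 15 groups and trended, robust variances (residual df 15, median prior df 8.08). Each gene thus had the same spread in all groups, although replicates differed unequally (chi-square per degree of freedom 2.19 to 36.3). The p-values may therefore be too small for the more variable groups and too large for the others. Fits of only the lines compared gave fewer calls in several Par comparisons and more in several PR ones. Calls used two-sided tests with Benjamini-Hochberg adjustment across all 12743 genes in each comparison, at an adjusted p under 0.05. There were 23 comparisons. Of these, 2 (ruxolitinib with paclitaxel against DMSO, and the ruxolitinib effect with and without paclitaxel, both in Par cells) were added after values were seen. Several share a DMSO group.

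Named were 10 members in every group (CCNB1, CDK1, PLK1, AURKA, BUB1, KIF20A, CENPF, MKI67, FOXM1 and CDC25B), up to 6 called members with the largest change in each direction, members called against the majority, up to 3 called genes of each other list, and CDKN1A, GADD45A, MYBL2 and TOP2A. The settings varied were the pseudocount (0.25 CPM), the filter (none), the scaling (median of ratios), a replicate block, a fit of only the lines compared, voom on the recovered reads, a smooth GC and length correction per library (95.3% of tested genes and all 44 members had values) with and without the block, and leaving out single libraries. The model was also run on simulated counts with independent noise for each gene and the same dispersion in all groups. That run cannot show how GC-linked or unequal replicate differences affect the calls. Promoters came from RefSeq (GRCh38.p14).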

Additional observations from a re-analysis of the deposited data

Results flagged for a closer look

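The response to the same dose differed between lines by the interaction test of the fit across all genes. For 1 µM doxorubicin, 27 members responded more positively in DR than in Par cells and 1 less, against 33.2% and 25.1% of all genes, and the largest differences on the log2 scale were those of PLK1 (1.39), BUB1B (1.30), CCNA2 (1.14), KIF20A (1.01), NDC80 (0.92) and ANLN (0.89), with CDC25C at -0.36. For 10 nM paclitaxel, 25 members responded more positively in PR than in Par cells, against 6.87% of all genes, and the count was 10 without PR DMSO replicate 1. The order was led by PLK1 (0.79), ASPM (0.71), NUF2 (0.70), KIF20A (0.70), CENPE (0.67) and CCNB1 (0.66).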

How the results depend on the processing

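Over all settings no named gene that was called in the fit of all 15 groups changed sign. Named genes not called there, and counts, were not checked for a change of direction. Of the tests of named genes, 3620 kept their side of the threshold, 292 lost and 120 gained a call. Counts of members called, in the order given in each list, moved by more than 1.5 times as follows. With only the lines compared in the fit, the counts were 5 higher at 65 nM doxorubicin, 14 lower at 2.5 nM paclitaxel, 19 lower from 2.5 to 10 nM, 1 lower for doxorubicin against paclitaxel, 3 higher and 0 lower in DR DMSO, 13 higher at 350 nM in DR, 1 lower at 6.5 nM and 21 lower at 10 nM in PR, 0 and 16 higher with ruxolitinib in Par and PR, 16 and 6 higher with the combination against paclitaxel in Par and PR, and 0 lower for the combination against DMSO. With the GC and length correction they were 23 higher at 65 nM, 7 higher from 65 nM to 1 µM, 5 lower for doxorubicin against paclitaxel, 16 higher in DR DMSO, 2 lower in PR DMSO, 20 higher at 350 nM, 10 higher and 7 lower from 350 nM to 1 µM in DR, 25 lower at 10 nM in PR, 27 and 20 higher with ruxolitinib in Par and PR, 5 higher with the combination in PR, 3 lower for the doxorubicin response, 41 higher for the paclitaxel response, and 5 lower for the combination against DMSO. Adding the replicate block to that correction gave the same values except 15 in DR DMSO, 19 with ruxolitinib in PR, 6 with the combination in PR, 40 for the paclitaxel response, and a count within 1.5 times for the combination against DMSO. Without the filter there were 0 lower in DR DMSO, 4 lower at 10 nM in PR, 1 higher with ruxolitinib in PR and 16 for the paclitaxel response. Median-of-ratios scaling gave 1 lower for doxorubicin against paclitaxel, 1 higher with ruxolitinib in PR and 2 lower for the doxorubicin response, and voom gave 1 higher with ruxolitinib in PR. The pseudocount of 0.25 CPM moved no count by that much.

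The replicate block alone moved no count by more than 1.5 times (44 at 10 nM paclitaxel in Par, 24 for the paclitaxel response). The labels do not say that a number marks a shared culture or day. Deviations of same-numbered libraries correlated at -0.689 to 0.650 over 105 pairs of groups (median 0.0016, 30 over 0.1), so not every pair was over 0.1 and the numbers were not used as pairs.

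Leaving out single libraries gave ranges of 3 to 13 at 65 nM doxorubicin, 6 to 10 higher and 16 to 24 lower at 1 µM, 3 to 5 higher and 18 to 31 lower between them, 5 to 29 at 2.5 nM paclitaxel, 40 to 43 at 10 nM, 19 to 27 between those, and 24 to 37 higher and 1 to 3 lower for doxorubicin against paclitaxel. In DR cells they were 3 to 9 higher and 0 to 1 lower in DMSO, 2 to 6 at 350 nM, 14 to 16 at 1 µM, and 2 to 3 higher and 0 to 3 lower between doses. In PR cells they were 9 to 19 higher and 0 to 2 lower in DMSO, and 0 to 4 at 10 nM paclitaxel. For ruxolitinib they were 0 to 9 in Par, 12 to 27 for the combination against paclitaxel in Par, and 0 to 3 against DMSO, and the other counts of 0 stayed 0. For the responses they were 20 to 31 higher and 0 to 1 lower (doxorubicin) and 10 to 26 (paclitaxel). A group left with 1 library was assumed to vary like the others. Searching the whole promoter window raised the share of members with CHR letters from 51.4% to 70.3%. The share rose from 14.6% to 16.6% over all promoters and from 9.78% to 11.3% over promoters of tested genes. With 2 libraries a group, many small changes may have been missed, although some were called.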

Other observations

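Outside the members, other cell cycle lists were read in DR cells at 1 µM doxorubicin. Of 36 DNA replication genes 21 rose (median 0.32), against 19.1% of all tested genes, led by the licensing factor gene CDC6 (0.87), the clamp loader gene RFC3 (0.78) and the origin recognition gene ORC6 (0.76). Of 49 other kinetochore and spindle genes 26 rose and 1 fell, among them CKS1B (0.83), a partner of CDK1. MYBL2 rose by 0.96, from 149 and 148 CPM to 289 and 291, and TOP2A was not called (0.24). The cohesin subunit gene STAG1 fell by 1.09 there.

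Members with and without CHR letters upstream (19 and 18 genes) had medians of -0.68 and -0.68 at 10 nM paclitaxel in Par cells. At 1 µM doxorubicin in Par cells the medians were -0.29 and -0.13, with 10 of 19 and 8 of 18 lower, near the 41.5% of all genes that fell, and the 7 members that rose included 5 without the letters and the unmatched FOXM1 and BIRC5, while 34.3% of all genes rose. These values describe the groups and were not tested.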
